A study of Caenorhabditis elegans with 2 samples.

Results

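The mir-51 family consists of the 6 microRNA genes mir-51 to mir-56 of Caenorhabditis elegans, out of 261 microRNA genes in the Ensembl annotation of build WBcel235, which is the ce11 assembly. The members were taken by name, and the family was selected with its signal values already known. The data are regions of the genome precipitated with SYD-9-GFP, a zinc finger protein carrying a C-terminal GFP-FLAG tag, from whole late embryos. All worms were hermaphrodites of strain OP488, genotype unc-119(tm4063) III with wgIs488. The latter is an integrated transgene for syd-9, and the embryos were taken 4 h after egg bleaching. There were 2 biological replicates in 1 group, and no group of another genotype, treatment or stage. The precipitation used an antibody against GFP. Worms lacking the tagged protein were not part of the series, so binding by SYD-9 and signal given by the antibody alone cannot be told apart. Whole embryos mix all tissues, and the cells in which a region was bound are unknown.

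MicroRNAs are cut from hairpin transcripts by Drosha and Dicer and guide Argonaute proteins to messenger RNAs, mostly through pairing of their seed, bases 2 to 8 from the 5′ end. The mir-51 family is known in the worm for overlapping functions that embryos need as a group, among them attachment of the pharynx, for which the cadherin gene cdh-3 is a reported target. Its seed is that of the miR-100 family of vertebrates.

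The mature sequences show what makes these genes a family. Each is given 5′ to 3′ from RefSeq's WBcel235 genome at the annotated arm, with the seed in capitals.
mir-51: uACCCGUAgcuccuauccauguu
mir-52: cACCCGUAcauauguuuccgugcu
mir-53: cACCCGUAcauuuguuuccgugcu
mir-54: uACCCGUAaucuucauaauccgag
mir-55: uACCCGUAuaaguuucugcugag
mir-56: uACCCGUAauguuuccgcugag
All 6 carried the seed ACCCGUA, and none of the 446 annotated mature arms of other microRNA genes did. The seed lay on the 5′ arm of the hairpin in 3 members (mir-51, mir-52 and mir-53) and on the 3′ arm in the other 3. The opposite arms had 6 distinct seeds. Outside the seed the members diverged. The closest pair was mir-52 and mir-53, whose mature RNAs were identical at 23 of 24 bases and differed by A12U, counted from 1 at the 5′ end with the base of mir-52 first. Next came mir-55 and mir-56, identical at 20 of 23 aligned positions. Over whole hairpins mir-52 and mir-53 were 79% identical, and the other 14 pairs ranged from 45.1% to 57.0%.

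The 6 genes lie at 3 places. On chromosome IV, mir-51 (11026013 to 11026112, minus strand) and mir-53 (11027593 to 11027691, minus strand) are 1480 bp apart, between the 3′ end of the aldehyde dehydrogenase gene alh-3 and the haem transporter family gene hrg-5. Also on IV, mir-52 (14034008 to 14034107, plus strand) stands alone, with its nearest protein-coding neighbours 9380 bp and 8488 bp away (irld-55 and Y37A1B.7) and 7 piRNA genes within 2000 bp. On X, mir-56 (13144691 to 13144787), mir-55 (13144827 to 13144924) and mir-54 (13144996 to 13145094) form a cluster on the minus strand with 39 and 71 bp between hairpins. The cluster lies in an intron of F09A5.3, a protein-coding gene on the plus strand. An antisense microRNA gene annotated as cel-mir-55b (F09A5.15, 13144830 to 13144919, plus strand) overlaps mir-55.

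Every member had a summit of the IDR set within 2000 bp of the gene. The IDR set is the authors' optimal list of 941 regions, made from both replicates and thresholded by the irreproducible discovery rate. Which comparison set that threshold is not stated in the sources used here. Membership does not mean that both replicates called the region, as 6 regions lacked a summit of each replicate within 200 bp. A summit is the base of highest signal in a region. Among all microRNA genes 16.1% had such a summit (42 of 261), and outside the family 36 of 255 did, including cel-mir-55b through the summit of the X cluster. Within 200 bp a summit was found at 3 members, mir-51, mir-52 and mir-53, against 3.07% of all microRNA genes (8 of 261, of which 5 lay outside the family). The members are not independent: the 6 genes share 6 summits in all, of which the X cluster has 1. Since the family was chosen for these regions, its counts are a description.

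The regions that carry these summits are printed here, since each leading summit lies just upstream of a hairpin. The strand is that of the gene, and capitals mark 21 bases centred on a summit and, further along, the mature microRNA.
mir-51, chrIV:11026013-11026312, minus strand: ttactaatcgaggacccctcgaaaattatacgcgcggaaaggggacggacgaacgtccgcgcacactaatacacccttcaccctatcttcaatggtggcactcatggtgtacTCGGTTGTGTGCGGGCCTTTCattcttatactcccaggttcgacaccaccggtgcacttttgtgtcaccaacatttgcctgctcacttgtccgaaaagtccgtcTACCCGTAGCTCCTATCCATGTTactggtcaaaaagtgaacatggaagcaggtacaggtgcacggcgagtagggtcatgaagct
mir-52, chrIV:14033868-14034167, plus strand: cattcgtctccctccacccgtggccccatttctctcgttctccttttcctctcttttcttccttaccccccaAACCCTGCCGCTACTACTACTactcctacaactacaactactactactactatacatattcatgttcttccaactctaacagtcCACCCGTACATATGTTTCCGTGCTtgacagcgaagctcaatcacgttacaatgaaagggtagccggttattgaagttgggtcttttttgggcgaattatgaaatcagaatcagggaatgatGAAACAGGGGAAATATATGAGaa
mir-53, chrIV:11027593-11027891, minus strand: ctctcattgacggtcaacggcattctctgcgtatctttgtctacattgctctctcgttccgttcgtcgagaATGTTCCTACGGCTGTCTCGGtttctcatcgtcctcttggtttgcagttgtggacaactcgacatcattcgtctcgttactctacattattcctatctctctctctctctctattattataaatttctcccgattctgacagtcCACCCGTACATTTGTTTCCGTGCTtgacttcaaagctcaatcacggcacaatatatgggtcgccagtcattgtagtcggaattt
mir-54, chrX:13145094-13145393, minus strand: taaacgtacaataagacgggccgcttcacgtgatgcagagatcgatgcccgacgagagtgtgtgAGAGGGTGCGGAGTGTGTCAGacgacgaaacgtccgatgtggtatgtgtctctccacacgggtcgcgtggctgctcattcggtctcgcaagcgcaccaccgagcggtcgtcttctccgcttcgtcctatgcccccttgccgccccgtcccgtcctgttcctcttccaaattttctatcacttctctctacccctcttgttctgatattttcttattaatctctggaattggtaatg
In the mir-51 sequence the summit is base 123 and the hairpin starts at base 201. In the mir-52 sequence a first summit is base 83, the hairpin starts at base 141, and a second summit is base 288, beyond the hairpin. In the mir-53 sequence the summit is base 82 and the hairpin starts at base 201. The mir-54 sequence ends with the first base of the hairpin and has its summit at base 75.

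The leading region of the family was at mir-51. Its summit lay 78 bp upstream of the hairpin, at IV 11026190 in a region of 270 bp (11026055 to 11026324), with a signal value of 377. The signal value is the authors' peak caller score, on a scale the sources used here do not state. The value was 149.5 in replicate 1 and 232.3 in replicate 2, where the summits lay 60 and 79 bp upstream. It ranked 23 of 941 in the IDR set, 40 in the list of replicate 1 and 18 in that of replicate 2. Both replicates thus placed it among their highest regions. The summit falls inside a short non-coding RNA gene, F36H1.17 (11026131 to 11026219, minus strand), so a signal of mir-51 and one of F36H1.17 cannot be told apart. The nearest annotated 5′ end of a protein-coding gene, that of hrg-5, was 3238 bp away.

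The region at mir-52 came next. It spans 509 bp (IV 14033700 to 14034208) around the hairpin and holds 2 summits. The upstream one, 58 bp from the hairpin at 14033950, scored 316 in the pooled data, 141.1 in replicate 1 and 178.4 in replicate 2, with ranks of 41, 48 and 34. The downstream one, at 14034155 and 48 bp past the 3′ end of the hairpin, scored 166, 84.2 and 98.3 in the same order, with ranks of 252, 194 and 231. The upstream summit was the higher in all 3 lists. It lies in a pair of annotated non-coding RNA genes, one on the plus strand (14033557 to 14034004) and one on the minus strand that overlaps the hairpin (14033942 to 14034090), while the downstream summit lies in no annotated gene. Lists of this kind do not say whether 2 summits so near each other stand for separate binding sites.

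A further summit of the mir-52 locus lay 1196 bp upstream (IV 14032812, region of 460 bp), inside another non-coding RNA gene (14032802 to 14032997, minus strand). Its pooled value was 106, close to the lowest of the IDR set (95.2), and it ranked 750. The replicates differed here more than at the other family summits: it scored 29.97 in replicate 1, rank 2874, and 79.1 in replicate 2, rank 396. In replicate 1 this value lay above 72.5% of a list whose median was 25.1, and in replicate 2 above 98.1% of a list whose median was 22.9.

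The summit nearest to mir-53 was weak. It lay 119 bp upstream of the hairpin at IV 11027810 (region 11027580 to 11028039, 460 bp), scored 112 and ranked 670 of 941. Replicate 1 gave 61.5, rank 449, with the summit 65 bp upstream, and replicate 2 gave 50.8, rank 1142, with the summit 120 bp upstream. The highest summit within 2000 bp of mir-53 is that of mir-51, 1403 bp beyond its 3′ end. In the order of pooled values at their own summits, mir-51 (377) and mir-52 (316) stood above mir-54 (199), and mir-53 (112) stood last. The same order held in each replicate, with 149.5 at mir-51 against 141.1 at mir-52 in replicate 1, and 232.3 against 178.4 in replicate 2. Scores of the 2 lists need not share a scale, so their range is no measure of spread at a site. With 2 replicates the order was not tested. The values of mir-54 (80.5 and 121.7) lay above those of mir-53 (61.5 and 50.8) and below those of mir-52 in both replicates.

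**Figure D1:**
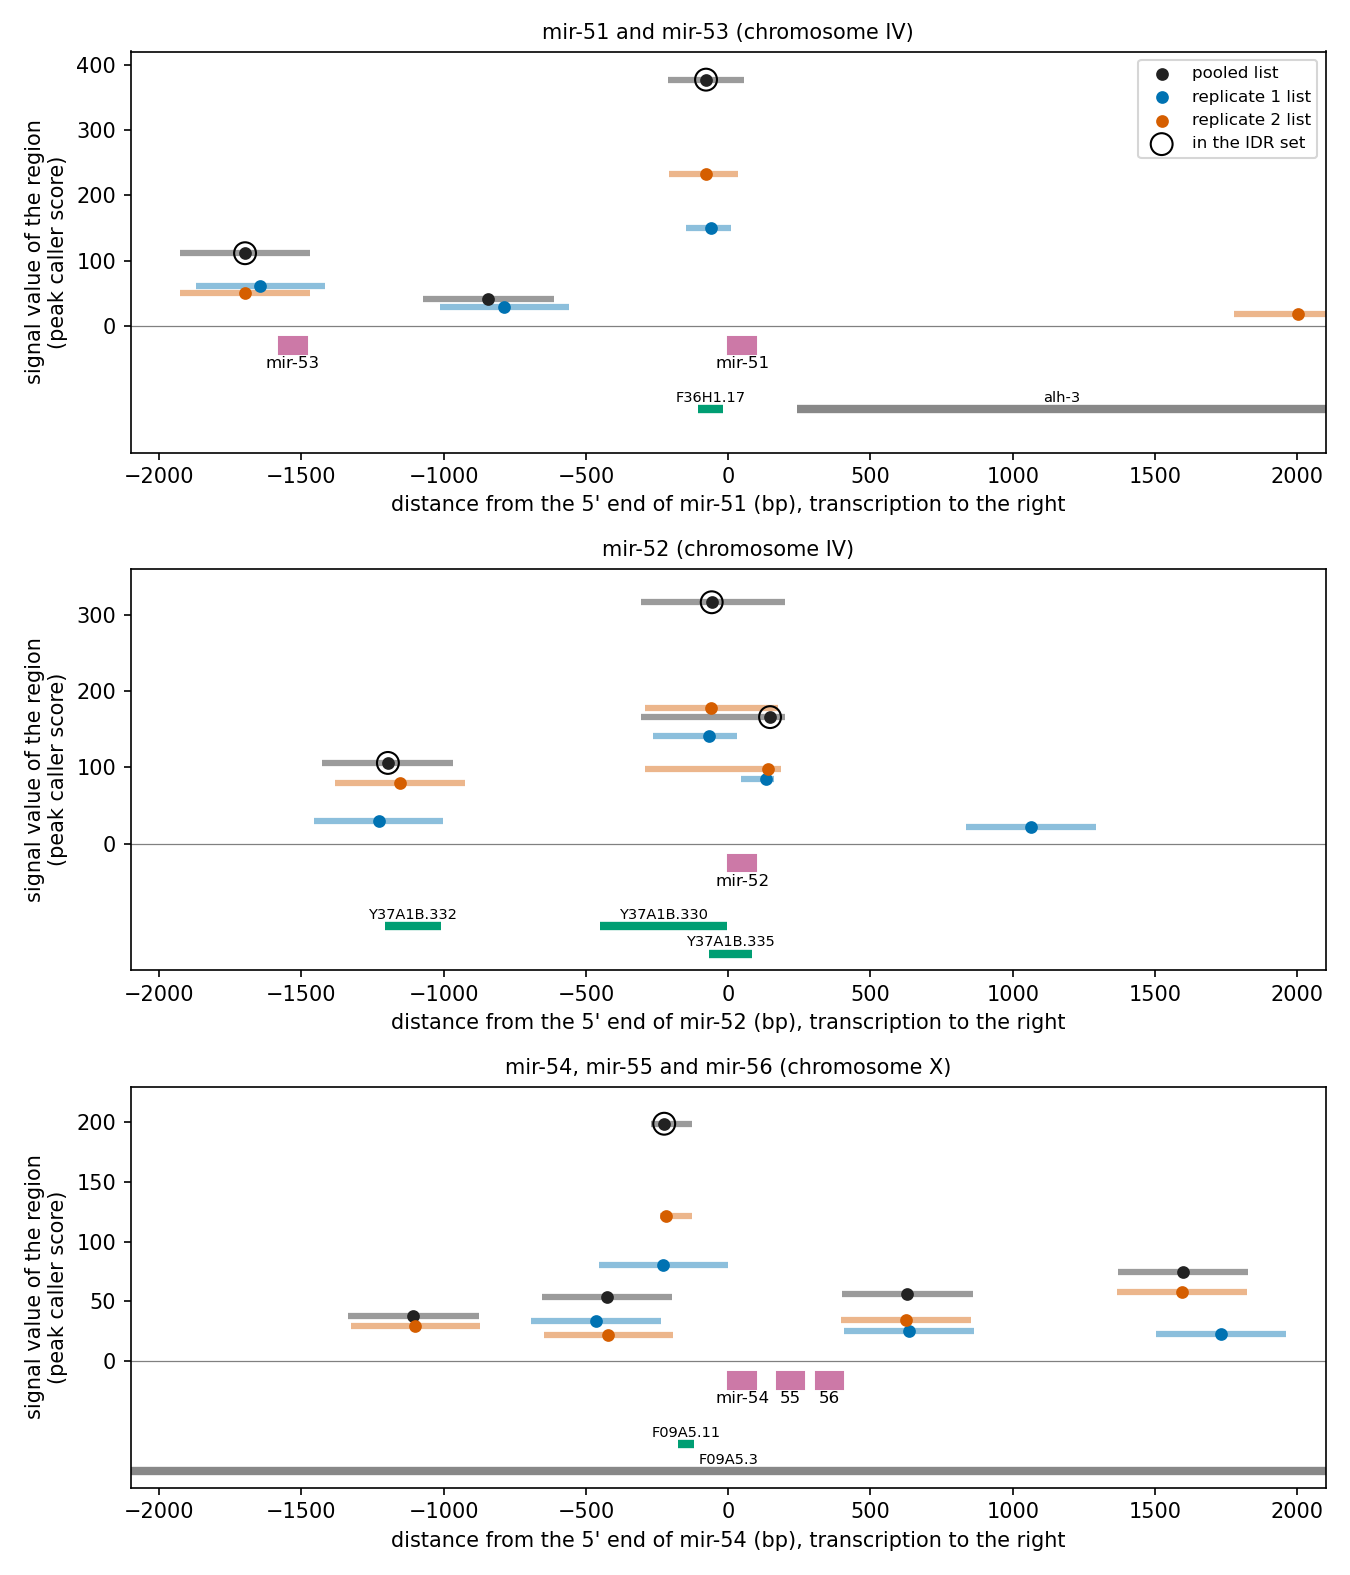
Regions and summits within about 2000 bp of mir-51, mir-52 and mir-54 (x axis, bp from the 5′ end of the hairpin, transcription to the right), placed at their signal value (y axis, peak caller score). Bars are regions and points their summits in the pooled and replicate lists, rings mark the IDR set, boxes below are hairpins (pink), non-coding RNA genes (green, at mir-52 those that hold a summit) and protein-coding genes (grey). The highest summits lie 78, 58 and 225 bp upstream of the 3 hairpins.

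At the X cluster a single IDR summit lay upstream of all 3 hairpins. It was 225 bp from mir-54, 395 bp from mir-55 and 532 bp from mir-56, at X 13145319 in a region of 145 bp (13145220 to 13145364). The pooled value was 199, rank 174, with 80.5 (rank 214) in replicate 1 and 121.7 (rank 120) in replicate 2. The replicate summits lay 228 and 220 bp upstream of mir-54. The summit is in an intron of F09A5.3, 3718 bp downstream of that gene's 5′ end, and in no annotated non-coding RNA gene, although F09A5.11 (13145213 to 13145271) overlaps the region. Because the 3 genes share 1 summit, they give 1 observation and not 3.

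The X cluster also had the most candidate summits that did not enter the IDR set. The pooled list held 4 of them within 2000 bp of mir-54. One lay 427 bp upstream (54.2 pooled, 33.3 in replicate 1, 21.6 in replicate 2), and another 1107 bp upstream (38.1 pooled, 29.8 in replicate 2), for which the list of replicate 1 had no summit within 200 bp. Past the 3′ end of mir-54 there was one at 531 bp (56.2 pooled, 25.1 and 34.5 in the replicates) and one at 1500 bp (74.4 pooled, with 57.6 in replicate 2 at 1496 bp and 23.1 in replicate 1 at 1634 bp). All of these were below the IDR minimum of 95.2, and those listed in replicate 1 had values of 23.1 to 33.3, against a list median of 25.1.

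Few other candidates lay near the members on chromosome IV. Between mir-51 and mir-53 there was 1, 843 bp upstream of mir-51 (42.2 pooled, and 29.0 in replicate 1 at 787 bp), with no counterpart in replicate 2. The list of replicate 2 held 1 more, 1904 bp past the 3′ end of mir-51 (18.03), and that of replicate 1 held 1 at 966 bp past mir-52 (21.99). In the candidate lists, which reach far below the IDR set, 6 of 6 members had a summit within 2000 bp in each list, and so had many microRNA genes in general: 50.6% in the pooled list, 48.3% in replicate 1 and 67% in replicate 2. Just inside the limit of 2000 bp, the farthest IDR summit was the mir-53 one as seen from mir-51, at 1698 bp. Beyond the limit, the next IDR summit was 23377 to 23682 bp away for the X cluster, 55320 and 56899 bp for mir-53 and mir-51, and 94357 bp for mir-52.

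**Figure D2:**
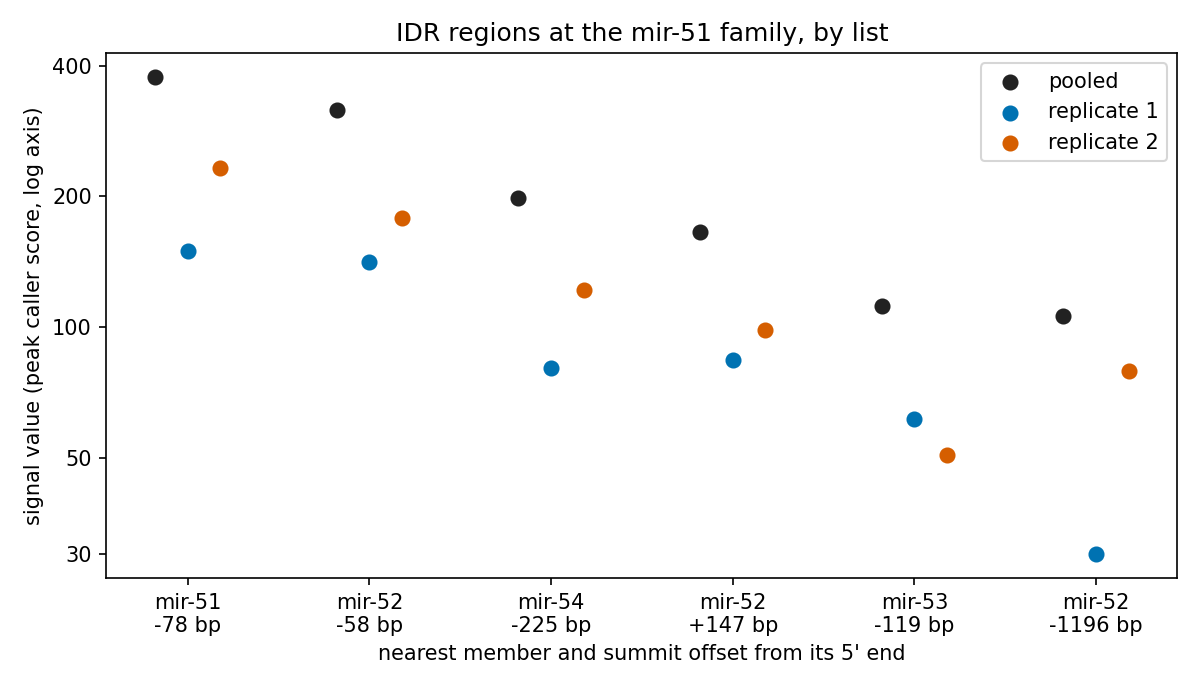
Signal values (y axis, peak caller score, log axis) of the 6 IDR summits at the family (x axis, nearest member and offset from its 5′ end in bp) in the pooled list and in each replicate. Values fall from 377 at mir-51 to 106 at the far mir-52 summit, and replicate 2 is the higher replicate at every summit but that of mir-53.

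Most family summits differed between the replicates in the way that IDR regions in general did. The ratio of the replicate 2 to the replicate 1 score was 1.55 at mir-51, 1.26 and 1.17 at the near pair of mir-52 summits, 1.51 at mir-54, 0.826 at mir-53 and 2.64 at the far mir-52 summit. Over the 935 IDR regions with a summit of each replicate within 200 bp the median ratio was 1.23, with 5th and 95th percentiles of 0.706 and 2.12, and the median scores were 60.3 in replicate 1 and 73.9 in replicate 2. The far mir-52 summit thus lay outside that range, with 98.6% of IDR regions below its ratio, and the other 5 lay inside it. At mir-53, the one family summit with the higher score in replicate 1, 9.52% of IDR regions had a lower ratio. Across the 6 summits the replicate positions differed from the pooled ones by -54 to 43 bp, with the largest shifts at the weak summits of mir-53 and the far mir-52 site. At the 4 stronger summits the shifts were -18 to 3 bp.

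**Figure D3:**
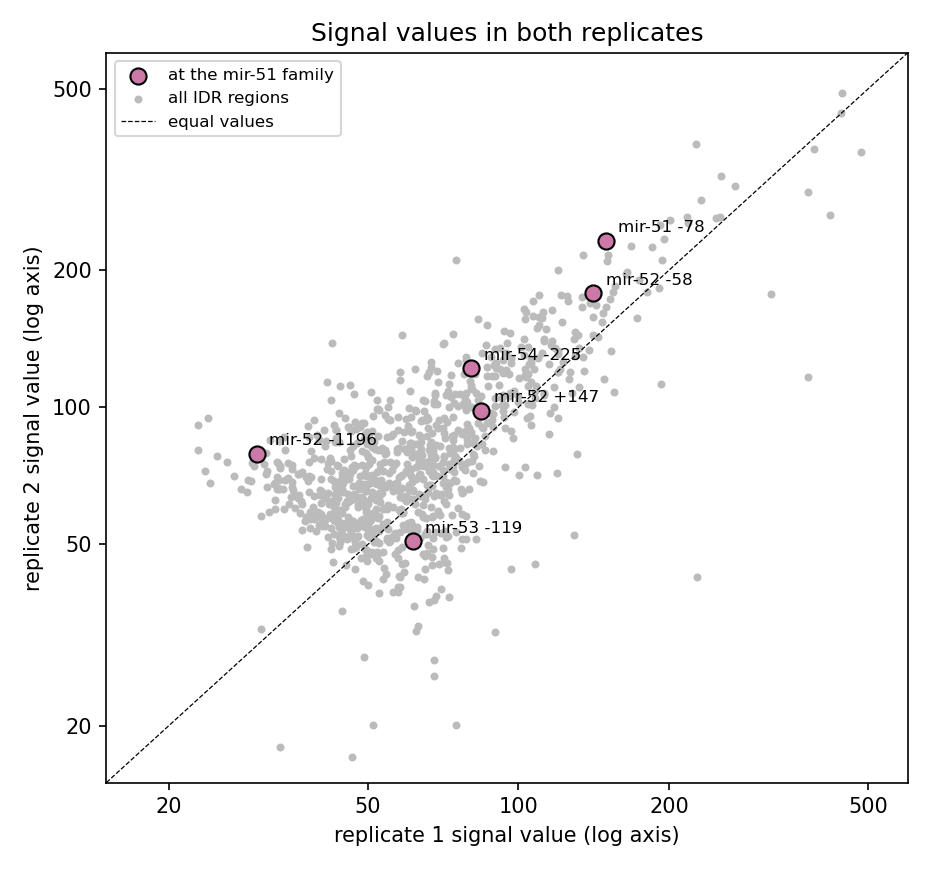
Signal values of IDR regions in replicate 1 (x axis, log) and replicate 2 (y axis, log), with the 6 summits at the family in pink and 935 IDR regions in grey; the dashed line marks equal values. The mir-51 summit and the mir-52 summit 58 bp upstream lie in the upper part of the cloud, and the far mir-52 summit (29.97 and 79.1) lies at its left edge.

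Set beside the other microRNA genes, the leading pair of summits scored higher than any outside the family. The values of mir-51 (377) and mir-52 (316) were above the range of the highest values at the 36 other genes with an IDR summit within 2000 bp, which ran from 97.1 to 223 with a median of 122. The value of the X cluster (199) was inside that range. The 36 other genes shared 24 distinct summits, of which 1, that of cel-mir-55b, is the family's own X cluster summit, leaving 23. The next gene was mir-90 on III, with 223 at 332 bp upstream (106.1 in replicate 1 and 127.7 in replicate 2). Of the 36 genes 20 had the summit upstream of the hairpin and 7 had a tRNA, snoRNA or snRNA gene within 200 bp of the summit. These count genes, some of which share a summit. The 20 include the mir-35 to mir-41 cluster with its shared summit, and the 7 all belong to the summits near the tRNA genes R11.t1 and Y59E1B.t2. No comparison with these genes was tested, because the family was chosen on the same values.

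Several of these genes are well known. The founding microRNA gene lin-4, a timing regulator, had a summit 382 bp upstream that scored 149 (62.5 and 83.1 in the replicates). The neuronal gene mir-124 had one at 498 bp upstream that scored 124. The mir-35 to mir-41 cluster, a family that embryos also need, shared 1 summit upstream of mir-35 (372 bp) with a value of 116. It thus resembles the X cluster in layout, with a lower value. The 5 genes outside the family with a summit within 200 bp were mir-80, mir-87, mir-5549, mir-8192 and mir-8209, with values from 114 to 134.

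The genes whose values were most like those of mir-51 were mir-90, cel-mir-55b and mir-2215. Likeness was the sum of absolute log2 differences over the pooled and both replicate values, and it came to 2.11, 2.75 and 3.09. The second of these shares the summit of the X cluster and is no separate observation. For mir-2215 the summit was 1598 bp upstream, with a value of 185.

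**Figure D4:**
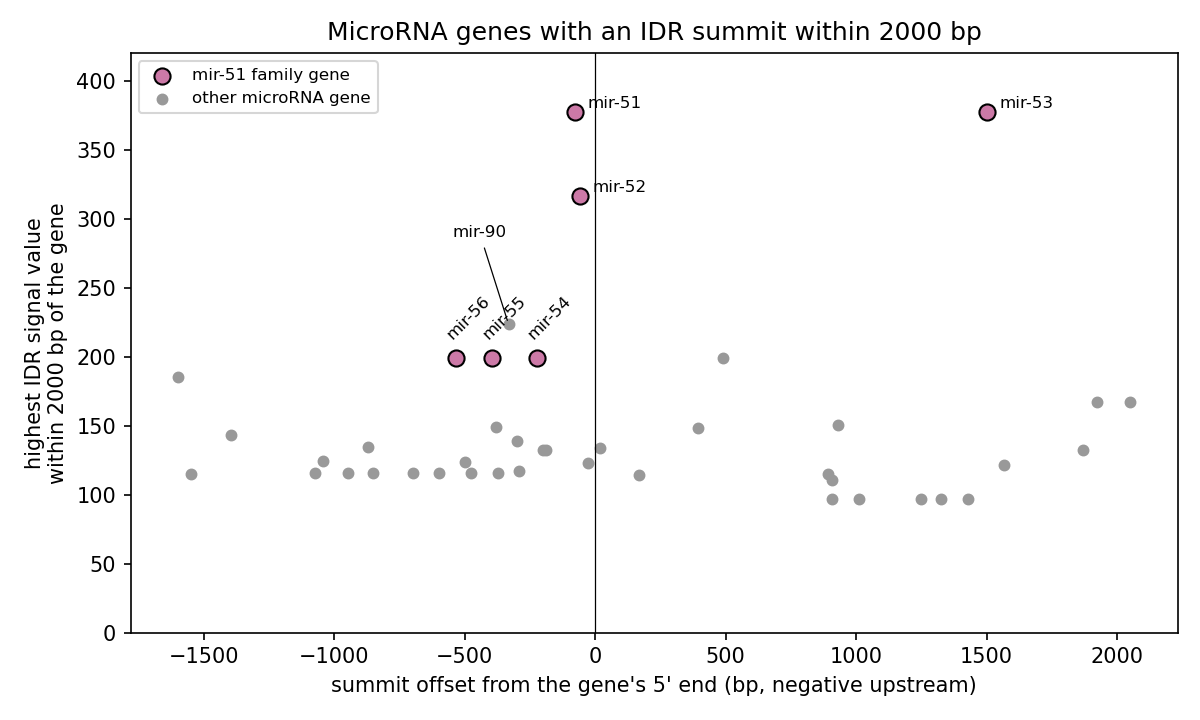
Highest IDR signal value within 2000 bp (y axis, peak caller score) against the offset of that summit from the gene's 5′ end (x axis, bp, negative upstream) for the 6 family genes (pink) and 36 other microRNA genes (grey). The point for mir-53 repeats the mir-51 summit, and mir-51 (377) and mir-52 (316) lie above all grey points, of which mir-90 (223) is the highest.

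The summit windows, 300 bp each, shared few letters. Of the 6-letter motif GAGAGA, a word of GAGA-type sites, there was a match on either strand in 4 of the 6 windows, against 53.8% of 923 windows at nuclear IDR summits and 21.8% of the 261 windows of 250 bp upstream of microRNA genes. At mir-53 there were 8 matches, overlapping ones counted, and 6 of them form a run of CT repeats at -34 to -19 bp from the hairpin, which can be read in the printed sequence. The far mir-52 summit had 3 matches, and the near upstream mir-52 summit and mir-54 had 1 each. The mir-51 window, the one with the highest score, had none.

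The other motifs were found in at most 2 of the 6 windows. The TATA box letters TATAAA occurred on the gene's strand at -181 to -176 bp of mir-52 and at -12 to -7 bp of mir-53, and in 17.4% of IDR windows and 25.7% of microRNA upstream windows. The letters GTTCNANNC, as in the B box of tRNA genes, matched once in the family, as GTTCGACAC at -51 to -43 bp of mir-51, inside F36H1.17 and on its strand; 22.3% of IDR windows and 11.1% of microRNA upstream windows held a match. The E-box CACGTG matched at mir-54 (-273 to -268 bp), against 5.53% and 3.07%. That match lies outside the 250 bp upstream windows that give the 3.07%, in which 0 members had a match. TTTCCCGC, as in E2F sites, had 0 matches in the family, against 2.82% and 0.766%. A match is a match of letters, and no binding site is implied.

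No 8-letter word was common to the upstream sequences of more than 2 of the 4 members that lie nearest to an IDR summit (mir-51, mir-52, mir-53 and mir-54). Of 11 words held by 2 of them, 7 were shared by mir-52 and mir-53. Some of the 7 overlap, as GAACGAGA, AACGAGAG and ACGAGAGA do, so they are fewer separate matches. Each of the 7 was also found in 0.766% to 3.45% of all microRNA upstream windows and in 0.975% to 8.78% of IDR windows. The windows at mir-52 and mir-53 also shared 6 words of 12 letters, all of them inside both hairpins, into which the windows run, and the 250 bp upstream of these hairpins shared 0. Other pairs of windows from separate regions shared 0. The GC content of the windows was 59.3% at mir-54, 50% at mir-51, 49.3% at the near upstream mir-52 summit, 48.3% at the far one, 44.3% at mir-53 and 42% at the downstream mir-52 summit. The IDR windows had a median of 46.7% with 5th and 95th percentiles of 34% and 57.3%, so that the X cluster's window lay above the upper one. Every 36-base word in the 5 distinct regions that hold the 6 summits occurred once in the genome, so reads of that length could be placed uniquely there.

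A list of 27 genes tied to microRNAs was looked up in the same way. It holds the Drosha and Dicer complexes, Argonautes and their partners, decay factors, known regulators and the reported target cdh-3. Of these, 26 were matched, and 1 had an IDR summit within 500 bp of a 5′ end. The share among all protein-coding genes was 2.43% (485 of 19973), and a count of 1 shows neither likeness to it nor a difference. That gene was vig-1 on II, which encodes a component of the RNA-induced silencing complex, with a summit 402 bp upstream and a value of 146. Those that came close were the Argonaute gene alg-1 (508 bp upstream, 111), ain-1, which encodes a GW182 protein (762 bp upstream, 195), and the TRIM-NHL gene nhl-2 (805 bp upstream, 161). They were named after their values were seen. The share of all protein-coding genes with a summit at such distances was not counted. The reported family target cdh-3 had its nearest IDR summit 24613 bp away.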

How the data were processed

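Regions were taken from the ce11 lists of the 2 replicates, the pooled data and the optimal IDR set. Per the file headers and notes deposited with the lists, each was made from the authors' alignments with a control. Which peak caller and IDR threshold were used is not given in the sources used here. As deposited, the signal value is the authors' own score, and the authors also gave each region the -log10 of its q-value, which was 1.70 to 2.02 at the 6 family summits in the IDR set. In the replicate lists this value was 0.356 in replicate 1 and 2.11 in replicate 2 at the far mir-52 summit. At the other family summits it was 1.74 to 2.36 in replicate 1. The lists hold no read counts, so depth per replicate is unknown, no interval or test was computed, and a score in one list may not mean the same in another. Candidates numbered 13472 in the pooled list, 10468 for replicate 1 and 20425 for replicate 2. All 941 IDR regions occur in the pooled list with the same summit and score.

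Summits were assigned to genes of Ensembl release 115 (WBcel235) by the distance to the nearest base of the gene, within 2000 bp, or 500 bp of the 5′ end for protein-coding genes. Replicate summits within 200 bp of an IDR summit were paired with it. Sequences came from RefSeq's WBcel235 genome, and the hairpin positions of Ensembl and RefSeq were equal for 6 of 6 members. Hairpins were aligned with Biopython 1.88 (match 1, mismatch -1, gap opening -2, gap extension -0.5). The distance calculation was run on simulated data with planted summits, a check of the code and not of the results. Of the listed pathway genes, ntl-1 could not be matched. The ce10 lists were not used. The members, lists and motifs were chosen with earlier results of these data known. Named genes follow a rule: all members with their neighbours, other microRNA genes with an IDR summit, the 3 most like mir-51, and pathway genes with a summit. The pathway genes named as coming close, and lin-4, mir-124 and the mir-35 cluster among the other microRNA genes, were picked out after their values were seen. Distances, the point of measurement, the list, a stricter threshold and each replicate alone were tried as alternatives.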

Additional observations from a re-analysis of the deposited data

How the results depend on the processing

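The count of 6 members with an IDR summit within 2000 bp was 6 under every alternative run except a distance of 500 bp, which gave 5. A longer distance, any base of a region or the pooled list keeps every summit already counted. These settings could therefore not lower this count, nor the one within 200 bp given below. Without replicate 1 or without replicate 2, with the highest-scoring 941 regions of the other, the count within 2000 bp was 6. The mir-51 summit counts for mir-53 too, and mir-54, mir-55 and mir-56 share 1 summit. The count thus stayed at 6 where the nearest summit of mir-53 was lost, without replicate 1 and with the 470 highest-scoring regions. The count of 3 members within 200 bp was 5 at 500 bp, where mir-54 and mir-55 enter by construction, 4 with any base of a region, 3 with the pooled list or distances from the 5′ end, and 2 at 100 bp or with the 470 highest-scoring regions. It was 2 to 3 with a single replicate: mir-53 was lost without replicate 1, where its summit ranked 1142. For single members the highest summit within 2000 bp was compared, and the 6 members share 3 distinct ones. All 12 scores of a replicate alone differed from the pooled ones, whose scale they need not share. All 12 summit offsets differed too, by 1 to 18 bp. The summit nearest to mir-53 and the far mir-52 summit are not among these. Their shifts in replicates 1 and 2 were -54 and 1 bp, and -32 and 43 bp. RefSeq positions gave the same values as reported, since they equal those of Ensembl. So did the pooled list, which holds the IDR summits with the same scores. Depth is unknown, and 2 replicates of 1 group allow no test.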
